A study of Mus musculus with 54 samples.

Results

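The binding sites of Zfp_MB020, a KRAB zinc finger protein (KZFP) encoded in the Chr4 KZFP gene cluster of BL6J mice, were taken from its ChIP-seq peak list. All 410 peaks of the deposited list were used, of 25012 peaks in the lists of 42 KZFPs. The series holds 54 samples, among them 4 empty vector controls and a mixed input for each of 5 batches, and Zfp_MB020 belongs to batch 4 with 19 other KZFPs. The protein carried an HA tag and was over-expressed from a Sleeping Beauty transposon vector in cultures of F9, an embryonal carcinoma line of the mouse. The cultures were selected with puromycin and then expanded in medium without it. Chromatin was immunoprecipitated through the tag with anti-HA, the peaks were called against the input mixed from all cultures of the batch, and peaks also present with an empty vector were removed by the authors. Over-expression from a transposon may give more protein than the cell's own gene would, and the lists hold no RNA, so the markers of F9 cells could not be checked here. Each KZFP has 1 library. An interval given below therefore covers the counting error of the peaks and no error between repeat experiments, and the peaks of a list are not replicates of each other.

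KZFPs bind DNA through an array of C2H2 zinc fingers, in which each finger contacts a few neighbouring bases. Their KRAB domain recruits TRIM28 (KAP1), which in turn brings the histone methyltransferase SETDB1 and other repressors to the site. In early embryonic cells this system marks many transposable elements with H3K9me3 and keeps them silent, and several KZFPs also bind single-copy sequence near genes.

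The sequence most common at the Zfp_MB020 summits was an 8-base core, GCAGCAAT, read on either strand. To show it in context, 45 bases around the best match to the 15-base motif of Zfp985 are printed for the 5 single-copy peaks with the highest fold enrichment among those that match this motif without a mismatch. Zfp985 is the KZFP that shares its zinc finger array with Zfp_MB020 in the study's table, and its motif was found by the study on other libraries. Capitals mark the 15 bases of the match, in which the core takes positions 3 to 10. All sequences are from GRCm39 and run 5′ to 3′ on the strand named.
Gm33035 exon, chr10:68857031-68857075, plus strand: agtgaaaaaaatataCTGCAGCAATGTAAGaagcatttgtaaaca
between genes, chr12:54213891-54213935, minus strand: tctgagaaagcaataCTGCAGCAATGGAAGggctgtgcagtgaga
Phgdh intron, chr3:98242902-98242946, plus strand: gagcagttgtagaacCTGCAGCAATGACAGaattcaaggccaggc
Chd8 promoter, chr14:52494399-52494443, plus strand: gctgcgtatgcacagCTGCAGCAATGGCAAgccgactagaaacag
Sufu intron, chr19:46468931-46468975, minus strand: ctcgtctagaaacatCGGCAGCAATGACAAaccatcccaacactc
Their fold enrichments over input were 34.3, 32.7, 29.4, 26.0 and 23.5 in the order printed. Phgdh encodes the enzyme of the first step of serine synthesis, Chd8 a chromatin remodeller, and Sufu a negative regulator of Hedgehog signalling.

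The strongest peaks were of another kind, copies of 1 repeated sequence, described below as family 2. Set side by side, in the register of the highest peak, are 3 copies with a peak and the 4 copies without one that are nearest to it over the 45 bases.
with a peak, chr7:44445968-44446012, plus strand: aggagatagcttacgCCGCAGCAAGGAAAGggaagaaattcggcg
with a peak, chr3:14495768-14495812, plus strand: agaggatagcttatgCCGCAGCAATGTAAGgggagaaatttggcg
with a peak, chr13:104295210-104295254, plus strand: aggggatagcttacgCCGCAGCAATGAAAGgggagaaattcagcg
without a peak, chr1:99484722-99484766, plus strand: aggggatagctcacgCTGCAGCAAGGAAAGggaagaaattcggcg
without a peak, chr1:110099583-110099627, plus strand: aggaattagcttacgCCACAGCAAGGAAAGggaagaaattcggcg
without a peak, chr10:3202563-3202607, minus strand: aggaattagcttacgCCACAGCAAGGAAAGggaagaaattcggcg
without a peak, chr12:20109116-20109160, plus strand: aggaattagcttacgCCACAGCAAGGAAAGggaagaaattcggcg
The 3 copies with a peak had fold enrichments of 125.1, 86.1 and 54.3. Each of the 4 copies without a peak differs from the highest site at 3 of the 45 bases. Within the 15 bases the first of them has only C2T and the other 3 have only G3A, with positions counted from 1 at the 5′ end of the capitals. C2T lies before the core, which begins at position 3. Among the copies read in this register, described below, C2T was also in 3 of 16 with a peak, beside 14 of 95 without.

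The 410 peaks were 181 to 922 bp wide, with a median of 341.5 bp, and covered 147816 bp. Their fold enrichment ranged from 10.0, the authors' cutoff for this list, to 125.1 with a median of 14.5. The values were bunched near the cutoff, with 217 peaks (52.9%) below a fold of 15, 102 at 20 or more and 11 at 50 or more. The −log10 q value ranged from 19.9 to 695.3. Peaks lay on all chromosomes except Y, and none lay on an unplaced scaffold. Chr4 held the most, 37 peaks, and its density of 23.6 peaks per 100 Mb stood beside 23.8 on Chr11 and 7.08 on the X chromosome.

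Most sites of Zfp_MB020 lay in single-copy sequence. The 200 bp around the summit had no other alignment in GRCm39 of at least 100 bp at 80% identity for 310 peaks (75.6%, exact 95% binomial interval 71.2% to 79.7%). The search masks low-complexity sequence and so misses runs of short repeated units. Of the 310 peaks, 3 had a median 24-mer count above 1 and are single-copy only by alignment, 1 each on Chr10 (in Pcdh15), Chr14 and Chr18. Of the other 100 peaks, called repeat peaks here, 25 had 2 to 10 alignments including their own, 47 had 11 to 1000 and 28 had more. Single-copy and repeat peaks had similar folds, with medians of 14.7 and 13.9, but the 5 highest peaks were all repeat peaks. Among the 10 highest peaks, 6 were repeat peaks and 4 were single-copy. Reads that aligned equally well to several places were kept by the authors at 1 of them at random, so the position and height of a peak in a repeat with identical copies are less certain than those of a single-copy peak.

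**Figure D1:**
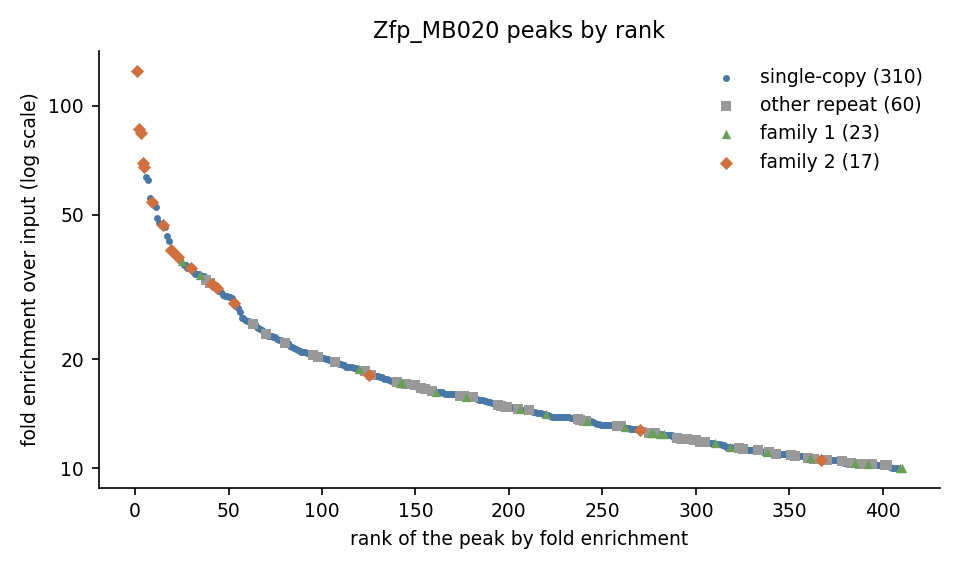
Fold enrichment over input (log scale) of the 410 Zfp_MB020 peaks against their rank, with 1 point per peak and symbols for single-copy peaks, families 1 and 2 and other repeat peaks. Family 2 takes the first 5 ranks and 6 of the first 10, while family 1 is spread from a fold of 37.2 down to the cutoff.

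The core was picked as the most frequent 8-base sequence on the odd-numbered chromosomes and then counted on the others. On the odd-numbered chromosomes it was in 100 of 209 summit windows (47.8%). On the even-numbered chromosomes and X, which had not been used to choose it, it was in 101 of 201 windows (50.2%, interval 43.1% to 57.4%). Windows of the same length 1000 bp before and after the summit held it in 2 and in 0 of 410 cases (upper bounds 1.75% and 0.896%). The core was thus in 201 of the 410 summit windows (49.0%), on the plus strand in 94 and on the minus strand in 107. Its centre lay a median of 7 bp from the summit, within 10 bp in 136 windows and within 25 bp in 185 (92.0%). Only 7 windows held 2 cores or more.

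**Figure D2:**
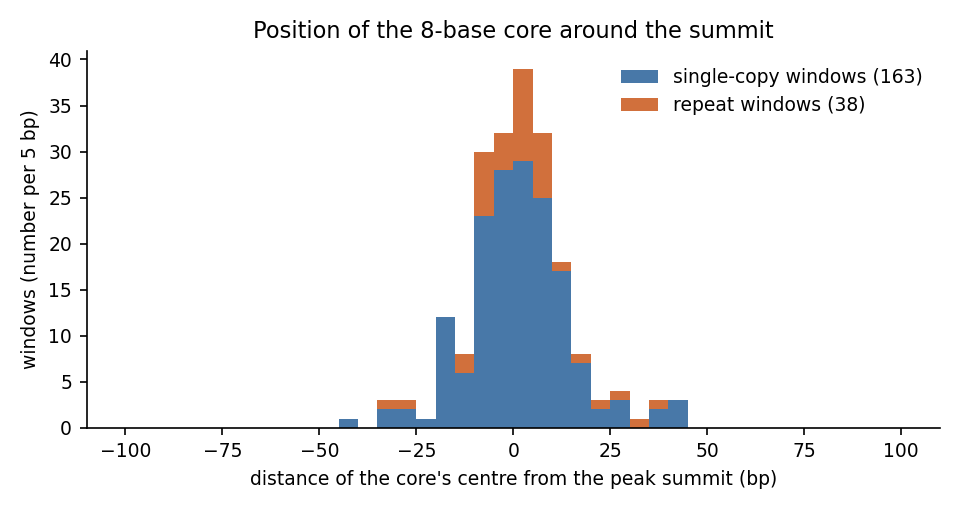
Distance of the centre of the 8-base core from the peak summit (bp) in the 201 windows that hold it, as numbers of windows per 5 bp, with single-copy (163) and repeat (38) windows stacked. In both kinds of window the cores gather at the summit, and 185 of the 201 lie within 25 bp of it.

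Of the 209 windows without the core, many held it with 1 base changed, most often at its end. Positions are counted from 1 at the 5′ end of the core. The change T8G (GCAGCAAG) was in 62 of these windows, against 4 and 6 of the control windows before and after the summit. The change A7G (GCAGCAGT) was in 46, against 3 and 7. The next most frequent, C5A, was in 9 windows, and these 2 variants were singled out after their counts were seen. The core or 1 of the 2 variants was in 304 windows (74.1%, interval 69.6% to 78.3%), against 9 and 13 of the 410 control windows. In the remaining 106 windows the first 6 bases, GCAGCA, were present in 44 (41.5%), against 6 and 15 of the controls.

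Bases beyond the core were also alike. In the 163 single-copy windows with the core, the base after it was G in 153 (93.9%), the base at position 12 was A in 117 (71.8%) and the base 2 before the core was C in 118 (72.4%). Around the T8G variant (36 single-copy windows) the same 3 positions held the same bases in 80.6%, 83.3% and 72.2%. Around the A7G variant (33 windows) they did so in 87.9%, 57.6% and 57.6%. At the other positions from 15 bases before to 20 after the core, the commonest base was in 50.9% of the core windows at position 11 (A) and in fewer elsewhere.

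Fold enrichment said little about which form of the core a peak held. Peaks with the core had a median fold of 14.5, those with a variant only 15.3 and those with neither 14.4. The same held for mismatches to the Zfp985 motif over all peaks. Median folds were 14.9 for 36 peaks without a mismatch and 15.4 for 105 with 1. They were 13.6 for 131 with 2 and 14.4 for 138 with 3 or more. In single-copy peaks the medians were 14.4, 15.5, 14.1 and 14.4 in the same order. In repeat peaks they were 31.8 (6 peaks), 14.8 (21), 12.9 (43) and 14.2 (30). Among single-copy peaks some of the highest folds came without the core or a variant. The peak between genes near Mt1 and Mt2, which encode the metal-binding metallothioneins, had a fold of 62.2 and 4 mismatches to the Zfp985 motif at best. The peak in an Igfbp7 intron near Polr2b, a subunit gene of RNA polymerase II, had a fold of 53.4 and 3 mismatches. The highest single-copy peak, with a fold of 63.7 in an intron of Trak1, which encodes an adaptor that links mitochondria to kinesin, held 2 cores.

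The motif of Zfp985 offers a measure that the Zfp_MB020 peaks had no part in. It was found without a mismatch in 36 summit windows of Zfp_MB020 (8.78%, interval 6.23% to 11.9%), with at most 1 mismatch in 141 (34.4%) and with at most 2 in 272 (66.3%). The control windows before and after the summit held it in 0 and 0 cases at up to 1 mismatch and in 1 and 4 at up to 2. In each of the other 41 lists the share without a mismatch was 0%, so that Zfp_MB020 had the highest of 42 values (two-sided exact permutation test over the lists, p = 0.0238, the smallest that 42 lists can give, and 0.143 after Benjamini-Hochberg adjustment over the 6 measures tested). The test asks only whether 1 list stands apart from the rest, since there are no repeat libraries. With 1 mismatch allowed the nearest other list was that of Zfp980 with 0.885%. The motif that the study derived from the Zfp_MB020 peaks themselves was in 23 windows without a mismatch and in 115 with at most 1, as a description of the peaks it came from.

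In the whole of GRCm39 the motif of Zfp985 matched 176 positions without a mismatch, and 36 of them lay in a Zfp_MB020 peak (20.5%, interval 14.8% to 27.2%). With at most 1 mismatch it matched 6346 positions, of which 147 lay in a peak (2.32%, 1.96% to 2.72%). The core alone occurred 77986 times, with 219 occurrences in peaks (0.281%), and the core followed by G occurred 24351 times with 200 in peaks (0.821%). Most matches thus lay outside peaks at the authors' cutoff. The share in peaks moved with base composition. Of the matches with at most 1 mismatch, 0.611% (0.293% to 1.12%) were in peaks where the surrounding 200 bp had under 40% GC, 2.59% (2.07% to 3.20%) at 40% to under 50%, and 3.61% (2.72% to 4.70%) at 50% or more. Recovery of DNA in ChIP-seq libraries also varies with GC, and its part in this was not tested. By class, the share of such matches in peaks was 2.96% in promoters, 3.11% in exons, 2.41% in introns and 1.83% between genes, with intervals that overlap. Without a mismatch it was 45% in exons (9 of 20, 23.06% to 68.5%), 25% in promoters (4 of 16), 19.5% in introns (17 of 87) and 11.3% between genes (6 of 53, 4.27% to 23.03%). The intervals of exons and of matches between genes nearly met but did not overlap, and the difference was not tested. Of the matches with at most 1 mismatch, those with unique surroundings were in peaks in 2.28% and those in repeated sequence in 2.90%, again with overlapping intervals (1.92% to 2.69% and 1.46% to 5.13%).

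By the place of the summit, 92 peaks (22.4%, interval 18.5% to 26.8%) lay in promoters, taken as the 1000 bp on either side of a transcription start, 31 (7.56%) in exons, 176 (42.9%) in introns and 111 (27.1%) between genes. These classes take up 8.38%, 4.41%, 45.5% and 41.7% of the genome outside gaps. Of single-copy peaks 24.8% lay in promoters and 19.4% (15.1% to 24.2%) between genes, while of repeat peaks 15.0% lay in promoters and 51.0% (40.8% to 61.1%) between genes.

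The exact core was found in 24 of 92 promoter peaks (26.1%, 17.5% to 36.3%), 21 of 31 exon peaks (67.7%, 48.6% to 83.3%), 103 of 176 intron peaks (58.5%, 50.9% to 65.9%) and 53 of 111 peaks between genes (47.7%, 38.2% to 57.4%). Of the promoter peaks a further 19 (20.7%) held the T8G variant, 16 (17.4%) the A7G but not the T8G variant and 33 (35.9%) none of these. In introns the shares counted in this way were 8.52% and 7.95%. Over all classes 5 windows without the core held both variants and were counted under T8G. Promoter windows had a median GC content of 55.5%, against 48.5% over all 410 windows.

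**Figure D3:**
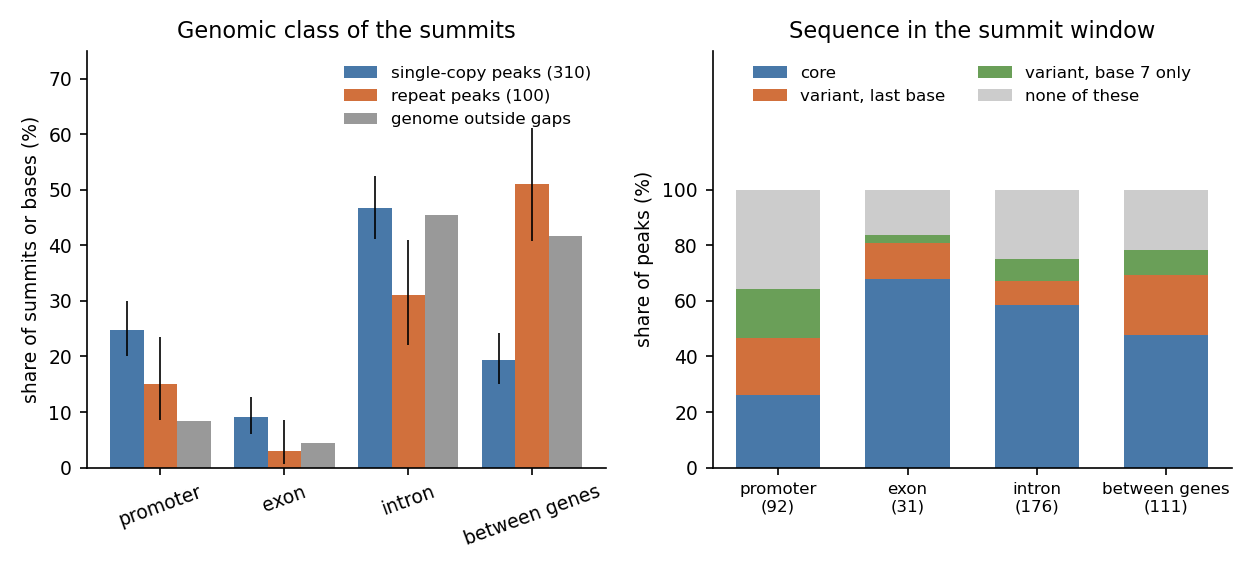
Left, share of summits (%) in 4 genomic classes for single-copy and repeat peaks of Zfp_MB020 with exact 95% intervals as bars, beside the share of the genome outside gaps. Right, share of the peaks of each class (%, number of peaks in brackets) whose summit window holds the core, the variant changed at its last base, the variant changed at base 7 without the former, or none of these, so that each window is counted once. The exact core is in 26.1% of promoter peaks and in 47.7% to 67.7% of the other classes.

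The promoter peak with the highest fold, 55.5, lay 129 bp from a start of Sec61a2, a gene for a subunit of the protein-conducting channel of the endoplasmic reticulum, with Nudt5 within 10 kb. Its best match to the Zfp985 motif had 4 mismatches. Ankrd46 followed with a fold of 49.1 at the transcription start itself, Tesk1, a kinase gene, with 47.3, and Gm57120 with 47.0. Epha1, an ephrin receptor gene, had a promoter peak with a fold of 39.5. Copb1, which encodes a subunit of the COPI vesicle coat, had one with 36.4 located 2 bp from a start. The promoters of Tpgs2, Gm63865, Pgls and Slco2a1, the last a prostaglandin transporter gene, complete the 10 highest with folds of 35.6, 33.1, 30.5 and 29.6. The sites at 4 of these promoters are printed to show how they depart from the exact core.
Sec61a2 promoter, chr2:5882912-5882956, minus strand: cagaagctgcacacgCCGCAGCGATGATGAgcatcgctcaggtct
Ankrd46 promoter, chr15:36496867-36496911, plus strand: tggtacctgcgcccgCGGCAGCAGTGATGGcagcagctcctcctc
Copb1 promoter, chr7:113854057-113854101, plus strand: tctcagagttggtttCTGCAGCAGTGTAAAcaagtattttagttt
Slco2a1 promoter, chr9:102885625-102885669, minus strand: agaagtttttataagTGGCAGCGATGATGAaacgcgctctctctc
Ankrd46 and Copb1 have the A7G form. The windows of Sec61a2 and Slco2a1 hold neither the core nor a variant, and the core with A6G, which is printed at both, was in 5 of the 209 windows without the core. Of the 10 highest promoter peaks, those of Epha1 and Gm57120 held the exact core.

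Comparison of the summit windows with each other placed 62 peaks in 11 families of 2 peaks or more that aligned over at least 100 bp at 80% identity. No repeat annotation was used here, so the families are described by their sequence and copy number and are not given the name of a transposable element. Family 1 had 23 peaks (5.61% of the list) on 15 chromosomes, each with 369 to 1458 alignments in the genome. Their median fold was 12.5 and the highest was 37.2. All 23 windows held the core or a variant, but only 3 the exact core. Its highest peaks lay between genes on Chr14 (fold 37.2) and in an exon of Mzt1, a gene for a small protein of microtubule-organizing centres, beside Bora, a gene for an activator of Aurora A kinase (fold 34.1). Both matched the Zfp985 motif without a mismatch, and their sites are shown because they share it. They also share bases next to the match on both sides.
family 1, chr14:96071153-96071197, plus strand: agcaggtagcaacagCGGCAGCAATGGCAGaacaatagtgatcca
family 1, Mzt1 exon, chr14:99276946-99276990, minus strand: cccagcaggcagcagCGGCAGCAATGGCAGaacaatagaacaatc
Copies of family 1 without a peak were many, 2247 beside 34 that overlapped a peak of the list. The core or a variant was in 25 of the 34 (73.5%, interval 55.6% to 87.1%) and in 1025 of the 2247 (45.6%, 43.5% to 47.7%), so that most copies with such a sequence had no peak.

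Family 2 had 17 peaks (4.15%) with 30 to 111 alignments each and a median fold of 39.7. It supplied 6 of the 10 highest peaks of the list and 14 of the 100 highest. Of the 17, 13 lay between genes, and none lay in a promoter. The highest, at chr7:44445983 with a fold of 125.1, was between genes near Gm72038. The next were in an intron of Gm8955 (86.1), near Exosc7, a gene of the RNA exosome, and Clec3b (84.2), near the olfactory receptor gene Or7e173 (69.5), and on Chr1 with no gene within 10 kb (67.9). The fold within the family went with the site. The 9 peaks with the exact core and the 5 with a variant had folds from 28.6 to 125.1, and the 3 with neither had folds from 10.5 to 18.1, so that the ranges did not overlap. The exact core did not go with a higher fold than a variant, as the 5 peaks with a variant had a median of 67.9. In 11 of the 17 windows the 24-mers were mostly unique in the genome, and in the other windows their median number of occurrences was at most 4.

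Copies of family 2 with and without a peak differed at the site. All copies were read in the register of the highest site, which left 16 copies with a peak and 95 without within 15 differences over the 45 bases. Their bases are those of GRCm39, and the genome of the F9 cells was not read. A copy that differs in these cells or is absent from them would not be seen as such. Positions are counted from 1 at the 5′ end of the 15-base site, so that the core begins at position 3. Position 3 was G in 16 of 16 copies with a peak and in 36 of 95 without (37.9%, interval 28.1% to 48.4%), of which 56 had G3A. Position 10 is the last base of the core, where the highest site has the G of the T8G variant and not the T of the core. The change G10A was in 21 copies without a peak and in 1 with a peak. The exact core stood in register in 9 of the 16 copies with a peak and in 2 of the 95 without. At the other 13 positions the base of the highest site was kept in at least 68.8% of copies with a peak and at least 85.3% of copies without. The core or a variant stood in register in 14 of the 16 copies with a peak and in 4 of the 95 without. Read the other way, 14 of the 18 copies with the core or a variant had a peak (77.8%, 52.4% to 93.6%), against 2 of the 93 copies with neither (2.15%, 0.262% to 7.55%). Since the core was found in peaks that include these, the shares are a description. The intervals also treat the copies as independent, although some, such as those printed above with G3A, are identical over the 45 bases. Reads that fit several copies equally well were placed at random, so a missing peak is less certain there. The Zfp985 motif, found on other libraries, was matched with at most 2 mismatches around the aligned site by 16 of all 17 copies with a peak and by 36 of all 99 without.

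**Figure D4:**
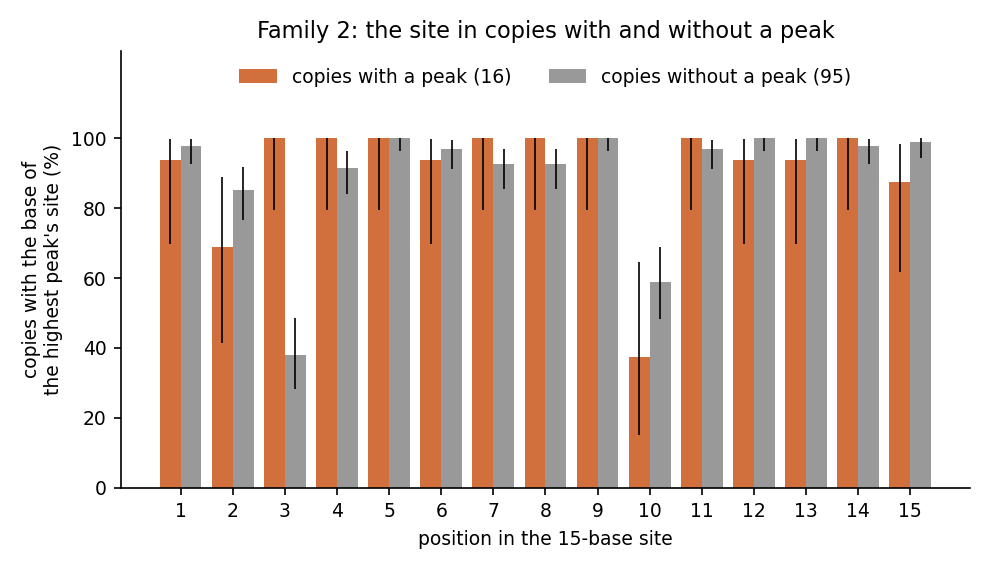
Share of family 2 copies (%) that have the base of the highest peak's site at each of its 15 positions, for 16 copies with a peak and 95 without, with exact 95% intervals as bars. The intervals treat the copies as independent. Position 3, the first base of the core, is kept in 16 of 16 copies with a peak and in 37.9% of copies without. At position 10, the last base of the core, the highest peak's site has the G of the T8G variant and not the T of the core. That G is kept in 37.5% and 58.9%, and the exact core is in 9 of the 16 copies with a peak and 2 of the 95 without.

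The other families were small. Family 3 had 4 peaks with folds from 10.2 to 23.5, the highest in an intron of Gm8417. None of its windows held the core or a variant, though all 4 matched the Zfp985 motif within 2 mismatches. The sites of its 2 highest peaks have C5A in the core. Families 4 and 5 had 3 peaks each and the other 6 had 2 each. Both peaks of family 6 lay on Chr2, those of family 5 on Chr12 and those of family 8 on Chr4.

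The stretch of Chr4 from 145237287 to 147932882 that spans 21 annotated KZFP genes of the cluster held 3 of the 37 Chr4 peaks, and none of the 3 was single-copy. It takes up 2695596 of the 156860686 bp of Chr4. They lay in the promoter of Gm13236 (fold 12.5), near Gm13166 (15.7) and between genes (16.6). Those at Gm13236 and between genes form family 8 with 7 alignments each and hold neither the core nor a variant, and the one near Gm13166 held the exact core. GRCm39 has gaps in this cluster, so sites in sequence missing from the build cannot appear here.

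Few Zfp_MB020 peaks coincided with those of the other KZFPs that have a list here. Zfp985, which shares its zinc finger array, has no list, so overlap with it could not be counted. At least 1 bp was shared with a peak of any of the 41 other lists by 42 peaks (10.2%, interval 7.48% to 13.6%), of which 30 met 1 list, 8 met 2 and 4 met 3 or more. The most shared list was that of Zfp982, with 16 peaks (3.90% of Zfp_MB020 and 0.337% of the 4746 Zfp982 peaks). Of these 16, 8 lay in promoters, among them those of Epha1, Copb1, Tpgs2 and Zfp711, and 5 belonged to family 2. The family 2 peaks shared with Zfp982 were 4 of the 5 with a variant and 1 of the 3 with neither, and 0 of the 9 with the exact core. Zfp_MB016 shared 10 peaks (0.162% of its 6183), Zfp_MB021 6 (7.41% of its 81), Zfp_MB022 5 (1.37% of its 365) and Zfp_MB026 4 (0.0974% of its 4106). The 6 peaks shared with Zfp_MB021 held no exact core. Of the 4 peaks that met 3 or more lists, 3 met Zfp_MB021, Zfp_MB022 and Zfp_MB023 together, in 4933416E14Rik, Pcdh15 and Sorcs3, and the fourth, in Dhrsx, met Zfp980, Zfp982, Zfp_MB018 and Zfp_MB021. The sites of Pcdh15 and Sorcs3 were runs of short repeated units, of which 1 is shown because it has nothing of the core.
Pcdh15 intron, chr10:73847611-73847655, plus strand: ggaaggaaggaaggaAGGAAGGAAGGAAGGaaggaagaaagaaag
The exact core was in 6 of the 42 shared peaks (14.3%) and in 195 of the 368 others (53.0%), and 47.6% and 78.8% of them were single-copy. A region that gives signal with many tagged proteins and a site bound by several of them cannot be told apart in these lists.

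Among the 42 lists Zfp_MB020 was at the single-copy end. Its summit windows had unique 24-mers in 88.8% of cases (interval 85.3% to 91.7%), against a median of 41.2% over the other lists, and only the lists of Zfp988 (94.0%) and Zfp_MB001 (91.0%) were higher (exact permutation test, p = 0.0714, adjusted p = 0.143). The share of peaks that overlapped any other list was the third lowest, above those of Zfp_MB014 (7.11%) and Zfp_MB026 (9.25%), with a median of 63.3% over the other lists (exact permutation test, p = 0.0714, adjusted p = 0.143). Such a share depends on which KZFPs have a list, and Zfp985 has none. Within batch 4, 1 of the 19 other lists had a higher unique share and 1 a lower overlap with lists of any batch (exact p = 0.1 and 0.2, where 0.05 is the smallest possible). With overlap counted only among the lists of batch 4, the share for Zfp_MB020 was 6.10% and 3 lists were lower (exact permutation test, p = 0.4). Neither measure passed the threshold of 0.05. The share in promoters and the median GC content of 48.5% were in the midst of the other lists, which had medians of 16.3% and 48.5% (exact permutation test, p = 0.952 and 0.833). The share between genes, 27.1%, lay below their median of 39.1%, with 33 lists higher and 8 lower (exact permutation test, p = 0.429).

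**Figure D5:**
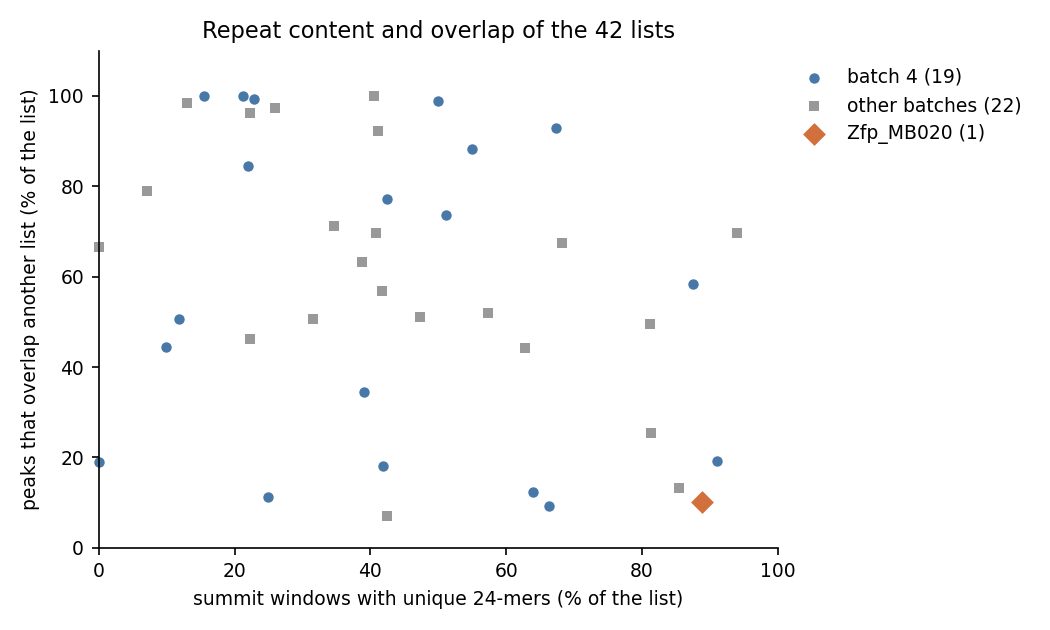
Each point is the peak list of 1 KZFP, placed by the share of its summit windows with unique 24-mers (%) and the share of its peaks that overlap a peak of another list (%), with batch 4, the other batches and Zfp_MB020 marked. Zfp_MB020, at 88.8% and 10.2%, lies in the corner of high single-copy content and low overlap. Zfp982, at 85.5% and 13.2%, and Zfp_MB001, at 91.0% and 19.3%, lie near it.

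In gene terms, 714 of 77949 annotated genes (0.916%) held a Zfp_MB020 summit or lay within 10 kb of one, and 113 had one in a promoter. Of 487 zinc finger protein genes 8 did (1.64%, beside 1.58% of 21738 protein-coding genes): Zbtb46, Zfhx3, Zfp108, Zfp385b, Zfp532, Zfp609, Zfp655 and Zfp711, of which Zfp711 had it in the promoter. Of 22 KZFP genes of the Chr4 cluster, 36 imprinted genes, 24 pluripotency genes, 24 genes of repressors that act with KZFPs and 25 neuronal adhesion and synapse genes, 0 had a summit within 10 kb. Olfactory receptor genes had 3 of 1188, with the promoter of Or2b11, and vomeronasal receptor genes 1 of 351. The lists are short, and no test was made of them.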

How the data were processed

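ChIP-seq of HA-tagged KZFPs in F9 cells was analysed from the deposited peak lists, 1 library per KZFP. Paired 100 bp reads were aligned by the authors with BWA to GRCm39. They kept 1 of several equally good alignments at random, called peaks with MACS2 2.2.7.1 against the batch input, and removed peaks of empty vector controls and those above q 0.01 or under a fold of 10 (5 in 10 lists). SAMtools 1.19 and deepTools 3.5.4 are also in the submitters' processing notes. The authors' files give, per peak, a fold enrichment (a ratio to input), −log10 p and −log10 q, the summit position and a display score that was not used. Read depth per sample is not in the lists and was not used. The paper reports depths that differ between libraries and between batch inputs, and their effect on the lists was not tested. The intervals given here reflect counts of peaks only.

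Windows of 200 bp around summits were read from GRCm39. Copies were found with blastn 2.17.0 (word size 11, e-value 1e-05), and 24-mers were counted in the assembly on both strands. A window counted as unique when the median number of occurrences of its 24-mers was 1. Genes came from GENCODE M39. Classes were assigned in the order promoter, exon, intron. Motifs came from the study's table and were searched on both strands. Lists were compared by a two-sided exact permutation of the list label, with Benjamini-Hochberg adjustment over 6 measures. Intervals are exact (Clopper-Pearson) at 95%. Procedures were tested on simulated data. Named peaks are the 10 highest, the 10 highest in promoters, the 5 highest single-copy ones with the Zfp985 motif, the 2 highest of the 3 largest families, those in the Chr4 cluster and those that overlap 3 or more other lists. Named genes hold such a peak or lie within 10 kb, and named other lists are the 5 with most overlaps. Further peaks and lists are named as exceptions seen in the values. The peaks, gene lists and tests were chosen with earlier results of these data known. Sequences of Chr18 are not shown.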

Additional observations from a re-analysis of the deposited data

How the results depend on the processing

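No paired analysis was possible because each KZFP has 1 library, and for the same reason no replicate could be left out. The share of windows with the Zfp985 motif was the highest of all lists under all 7 alternatives tried, from 8.78% to 66.3% with the mismatches allowed. The shares between genes, with unique 24-mers and with overlap kept their direction and stayed above the threshold of 0.05 under all of theirs. The share in promoters, 22.4%, fell from above to below the mean of the other lists with promoters of 500 bp (15.1%, exact permutation p = 0.833) and with protein-coding genes only (13.4%, exact p = 0.976). The median GC changed sides with a 100 bp window (50.0%), with a fold of 20 or more in every list (48.0%) and within batch 4 (48.5%), at exact p from 0.8 to 1. Neither measure passed the threshold under any setting. Windows with the Zfp_MB020 motif rose from 5.61% to 28.0% with 1 mismatch and 58.8% with 2, and were 9.80% at a fold of 20 or more. Windows without another alignment were 82.4% at 90% identity, 67.3% at 70% and 63.9% with alignments of 50 bp. Requiring unique 24-mers as well, a choice made after seeing the data, gave 74.9%. The largest family fell to 2.195% of peaks at 90% identity. These changes follow from the looser or stricter match, except that at a fold of 20 or more, whose cause was not tested. The lists hold only peaks past the authors' cutoffs, so a copy or motif match without a peak may still have weaker signal. Copies and motif matches were read from GRCm39 and not from the genome of the F9 cells.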
